A study of Sus scrofa with 30 samples.

Results

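The stress-inducible HSP70 genes HSPA6 and HSP70.2 and the co-chaperone gene DNAJB1 were followed in pig cerebral cortex through cardiac arrest and after resuscitation. All probe sets that the platform's own annotation gives 1 symbol, HSPA6, HSP70.2 or DNAJB1, were taken. This found 5 probe sets of 3 genes among 23999 probe sets, and 5 of the 5 were bright enough to be among the 16799 probe sets tested. In all, 6765 genes had at least 1 probe set with their symbol alone. The identifier begins with Ssc.114 for the HSPA6 probe set and Ssc.3502 for that of DNAJB1. The 3 HSP70.2 probe sets begin with Ssc.5145 and are called set A (ending in S1_a_at), set B (ending in 1.S1_at) and set C (ending in 2.S1_at). HSP70.2 is the pig gene that RefSeq lists under the synonyms HSPA1A and HSPA1B, and in RefSeq's pig annotation it overlaps HSPA1L, another HSP70 gene. The 3 HSP70.2 probe sets measure 1 gene and were not counted as separate evidence.

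HSP70 proteins are ATP-driven chaperones that bind exposed hydrophobic stretches of unfolded proteins and let them refold or pass to degradation. HSPA1A and HSPA1B are the main inducible forms, and HSPA6 (HSP70B') is a form that unstressed human cells make at very low level and that rodents lack. DNAJB1 (HSP40) delivers substrates to HSP70 and stimulates its ATPase through its J domain, after which nucleotide exchange factors such as BAG3 and HSPH1 reset the cycle. Heat shock factor HSF1 drives transcription of these genes when unfolded proteins accumulate, and inducible HSP70 is a long-used marker of ischaemic stress in brain.

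Cortex came from Swedish triple breed farm pigs of both sexes, prepubertal and 12 to 14 weeks old, all anaesthetised with pentobarbital, ventilated and brought into ventricular fibrillation by current. In 4 groups the arrest was not treated, with the brain taken at once (CA0, the control) or after 5, 20 or 30 min (CA5, CA20, CA30). In 6 further groups, 12 min of arrest and 8 min of chest compressions were followed by return of spontaneous circulation (ROSC) and sampling 30, 60 or 180 min later. These animals were given saline at 55 mL/kg/h, alone (SAL30, SAL60, SAL180) or with methylene blue, a redox dye, at 7.5 mg/kg/h (MB30, MB60, MB180). The infusion ran from 1 min after compressions began to 50 min after ROSC, so the 30 min groups were sampled during it. Each of the 10 groups had 3 arrays that the labels call biological replicates. CA0 animals had also been fibrillated, and no animals without arrest at the later times were analysed here, so resuscitation and time under anaesthesia cannot be told apart.

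Values are scaled array intensities in arbitrary units, and differences between groups are given on the scale log2(intensity + 16) with the standard error (SE) of a limma fit over all 30 arrays. A probe set was called where its Benjamini-Hochberg adjusted p over all 16799 probe sets was under 0.05. Levels were compared between arrays, never between probe sets. The array median lay between 87.1 and 108 on all arrays. Neuronal, astrocyte and oligodendrocyte markers were bright in every group, and the S100A8, S100A9 and S100A12 probe sets of neutrophils were below the intensity filter. The log2 ratio of 3' to 5' signal of control transcripts, a measure of RNA integrity, differed between groups: it was 1.66 to 1.92 in CA0, 1.22 to 1.35 in SAL30 and 0.85 to 0.88 in MB30. In bulk cortex, fewer cells of a type and less RNA per cell cannot be told apart.

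HSPA6, the strictly inducible form, had the largest difference from CA0 of the 3 genes in every resuscitated group. Its intensity was 138, 128 and 81.1 on the CA0 arrays, and over the 12 arrays without resuscitation it ranged from 81.1 to 161 with a median of 121. The saline arrays read 2673, 2133 and 3602 (30 min), 3579, 2664 and 3776 (60 min) and 4886, 5731 and 4404 (180 min). No saline array came near the range without resuscitation, and the 180 min arrays lay above the arrays of the earlier times. With methylene blue they read 1940, 1846 and 1567 (30 min), 2639, 4035 and 3676 (60 min) and 4808, 5114 and 5758 (180 min). The MB30 arrays were the lowest of all resuscitated arrays, and the MB180 arrays reached the level of SAL180.

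Against CA0, HSPA6 rose by 4.41 ± 0.20 (SE, n = 3 against 3) on the log2 scale in SAL30, 4.68 in SAL60 and 5.27 in SAL180, which are 21.3-fold, 25.7-fold and 38.7-fold. Because 16 was added to each intensity, these understate the ratio of mean intensities, which was 24.2, 28.9 and 43.3. The adjusted p-values of the limma fit were 3.55e-14, 8.41e-15 and 4.56e-16. HSPA6 had the highest log2 difference of all 16799 probe sets in each of these 3 comparisons. In MB30, MB60 and MB180 it rose by 3.80, 4.72 and 5.34, each with an SE of 0.20, and it ranked 5th, 1st and 1st of all probe sets.

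**Figure D1:**
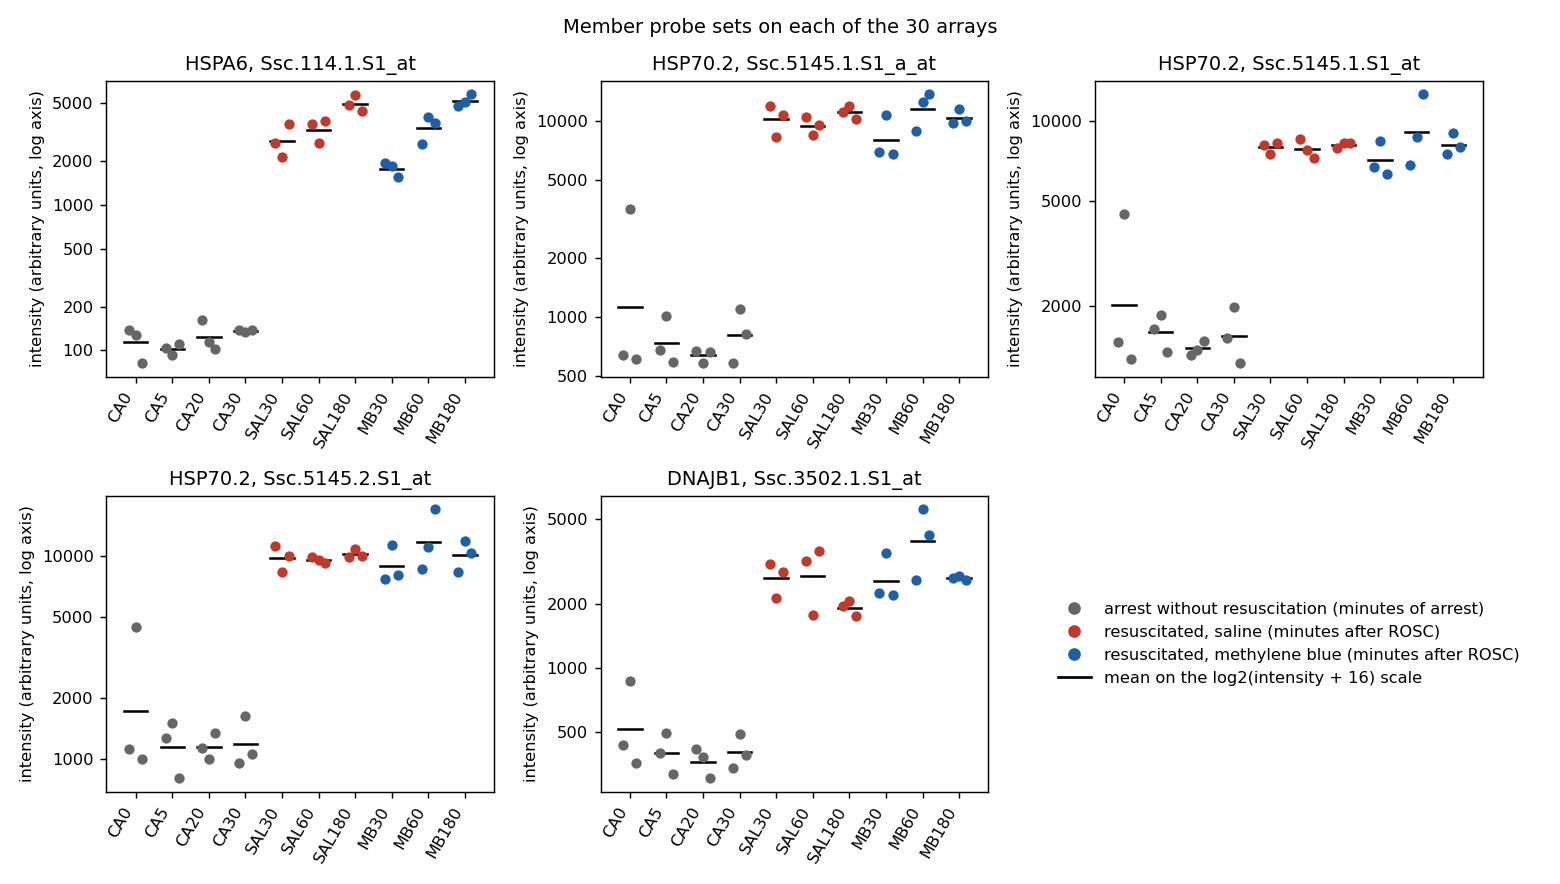
Intensity (arbitrary units, log axis) of the 5 probe sets on each of the 30 arrays by group, with a black bar at the group mean on the log2(intensity + 16) scale. All 18 resuscitated arrays lie above all 12 arrays without resuscitation in every panel. The share of all probe sets split in this way was not counted, and the members were chosen with earlier results known. CA0 replicate 2 stands high for HSP70.2 (3543 on set A) and DNAJB1 (867), and HSPA6 climbs to 180 min.

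HSP70.2, the main inducible cytosolic HSP70, was already high at the first time sampled. On set A the CA0 arrays had 639, 3543 and 613, and CA5, CA20 and CA30 lay between 581 and 1106. After resuscitation with saline the values were 11913, 8250 and 10715 (30 min), 10412, 8429 and 9524 (60 min) and 11079, 11872 and 10122 (180 min). With methylene blue they were 6925, 10634 and 6776 (30 min), 8813, 12397 and 13563 (60 min) and 9760, 11498 and 9899 (180 min). The 6 resuscitated groups overlapped with their neighbours at every step when ordered by mean, from MB30, the lowest, to MB60, the highest. On resuscitated arrays the HSP70.2 probe sets lay at the 99.4 to 99.9 percentile of all probe sets, and HSPA6 at 94.6 to 99.25. Whether signal this bright still rises in step with RNA was not tested.

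The log2 differences of HSP70.2 from CA0 in SAL30, SAL60 and SAL180 were 3.17, 3.05 and 3.28 (SE 0.39) on set A, 9.70-fold at 180 min with an adjusted p of 1.17e-05. They were 1.97, 1.95 and 2.0 (SE 0.28) on set B and 2.50, 2.46 and 2.57 (SE 0.35) on set C. The size of the difference thus depended on the probe set. The CA0 arrays read 1456, 4449 and 1257 on set B and 1112, 4472 and 1000 on set C, with replicate 2 high on each. In MB30, MB60 and MB180 the differences on set A were 2.81, 3.33 and 3.19. Whether probes for 1 HSP70 gene also bind transcripts of another was not tested.

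CA0 replicate 2 set the CA0 level of HSP70.2. Its set A value exceeded the mean of the other CA0 arrays by 2.47 on the log2 scale, the 4th highest difference of 16799 probe sets on that array, and DNAJB1 exceeded it by 1.10 (rank 132). HSPA6 was ordinary there (0.24, rank 4078), and so was BAG3 (-0.24 and -0.037 on its 2 probe sets), while the small heat shock protein CRYAB was high (1.26 and 1.79). The small heat shock proteins HSPB8 and HSPB1 differed by 0.42 and 0.38, and the probe sets of HSP90AA1 by -0.38 to 1.20. The summed oligodendrocyte markers were 55452 on this array against 38650 and 42505 on the other CA0 arrays, and their part was not tested. The array was not apart as a whole, with a median correlation to the other arrays of 0.961 within the overall range of 0.929 to 0.966. Without it, HSP70.2 in SAL180 against CA0 was 4.10 in place of 3.28 on set A, and the ratio of mean intensities was 17.6 in place of 6.90. On set B that ratio was 5.98 in place of 3.40, and on set C 9.70 in place of 4.67. The corresponding ratio for DNAJB1 was 4.87 in place of 3.49.

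DNAJB1, the J-domain partner, was high at 30 min, and no later change was called. Its intensity was 436, 867 and 357 in CA0 and 304 to 495 in CA5, CA20 and CA30. With saline it was 3075, 2148 and 2829 (30 min), 3182, 1771 and 3563 (60 min) and 1967, 2063 and 1764 (180 min). With methylene blue it was 2248, 3471 and 2203 (30 min), 2602, 5590 and 4240 (60 min) and 2645, 2710 and 2597 (180 min). SAL180 was the lowest resuscitated group and overlapped neither CA0 below it nor MB30 above it, and MB60 was the highest and the most spread.

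DNAJB1 exceeded CA0 by 2.33, 2.37 and 1.87 (SE 0.28) in SAL30, SAL60 and SAL180, which are 5.03-fold, 5.16-fold and 3.66-fold, with limma adjusted p-values of 2.57e-05, 2.72e-05 and 0.000348. In MB30, MB60 and MB180 the differences were 2.29, 2.90 and 2.33. Its 60 min value with methylene blue was 7.48-fold, the largest of the 6 groups.

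**Figure D2:**
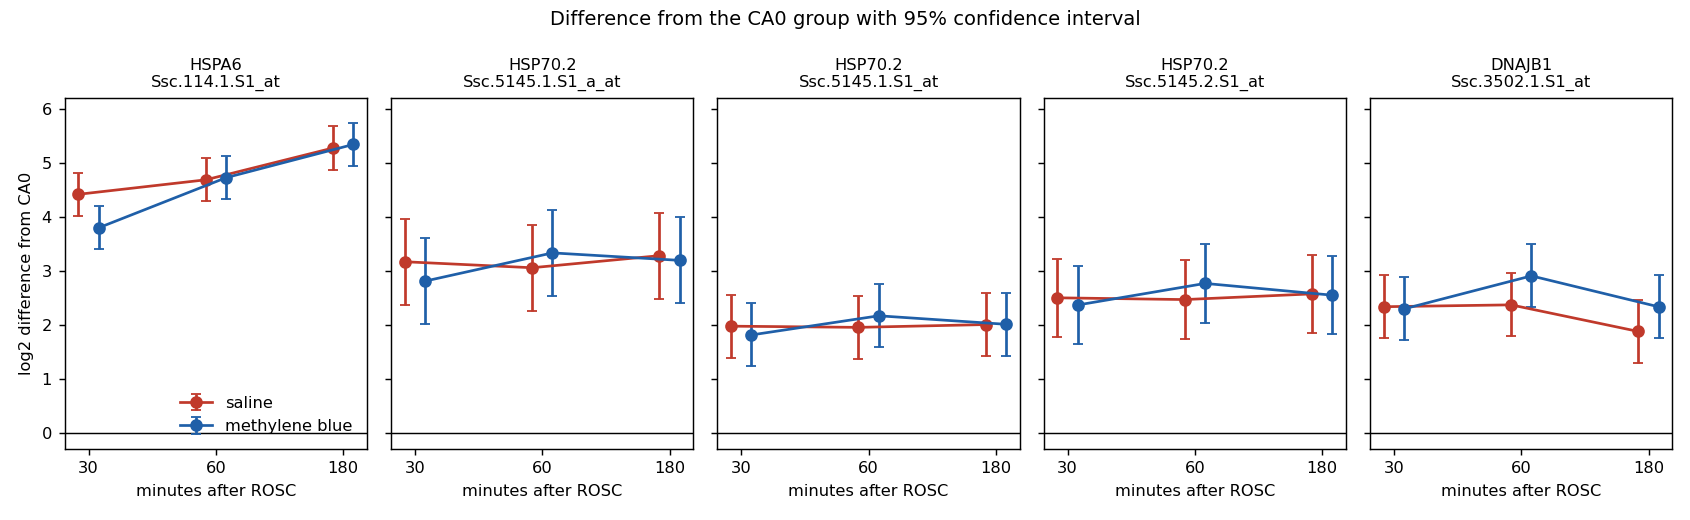
Log2 difference of each probe set from CA0 (points) with its 95% confidence interval from the limma fit, at 30, 60 and 180 min after ROSC, for saline (red) and methylene blue (blue). From 30 to 180 min, HSPA6 goes from 4.41 to 5.27 with saline and from 3.80 to 5.34 with methylene blue. HSP70.2 set A goes from 3.17 to 3.28 and from 2.81 to 3.19, and DNAJB1 from 2.33 to 1.87 and from 2.29 to 2.33. All intervals share the CA0 arrays, so their overlap does not measure change between times.

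Arrest alone was compared with CA0 to see whether these transcripts change without reperfusion. None of the 5 probe sets was called in CA5, CA20 or CA30 (over all probe sets, 0%, 0.0119% and 0.0119% were called). At an unadjusted p under 0.05 the limma fit gave 0 of 5 in each. Of all 16799 probe sets, 317, 712 and 682 passed at that threshold, so a count of 0 is near the background. All 5 overlapped with CA0 in each, where 3.77%, 5.54% and 7.84% of all probe sets lay wholly above it and 3.37%, 4.07% and 5.58% wholly below. HSPA6 differed by -0.13, 0.12 and 0.24 (SE 0.20), with 95% intervals that reached at most 0.64. HSP70.2 and DNAJB1 were lower by estimates down to -0.79 (set A in CA20, 95% interval -1.59 to 0.0015). These negative estimates rested on CA0 replicate 2, since without it HSP70.2 differed from CA0 by 0.029 to 0.37 over the 3 groups and DNAJB1 by -0.11 to 0.027.

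After resuscitation 5 of 5 probe sets, 3 of them of HSP70.2, were called higher than CA0 in each of the 6 groups. The members were chosen with earlier results of these data known, so counts and ranks of the resuscitated groups only describe them. The share of all probe sets called higher was 0.185% in SAL30, 0.274% in SAL60 and 0.619% in SAL180, against 7.58% in MB30, 7.05% in MB60 and 5.7% in MB180. In each of these comparisons the 3 resuscitated arrays lay above the 3 CA0 arrays for 5 of 5 probe sets, as did 6.24%, 6.07%, 7.76%, 19.5%, 16.6% and 16.7% of all probe sets in the same order of groups. All 6 comparisons share the CA0 arrays. With the 3' to 5' ratio as a covariate 5 of 5 were still called in each group, and HSPA6 in SAL180 then differed by 5.32. With the spread estimated from SAL and CA0 arrays alone, HSPA6 stayed called, but the 3 HSP70.2 probe sets did not at any time, and DNAJB1 did not in SAL30 (adjusted p = 0.0643). The adjusted p of HSP70.2 in that fit was 0.0629 to 0.116 in SAL180 and 0.354 to 0.477 in SAL30, the highest over 19 alternatives, and under 0.05 in the other 18. The fit over all groups pools the spread. On HSP70.2 set A the log2 SD was 1.43 in CA0 against 0.12 to 0.27 in the saline groups.

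A comparison that does not use CA0 set the mean of the saline groups against the mean of CA20 and CA30, untreated arrest of similar or longer length than the 12 min of arrest and 8 min of compressions. It called 5 of 5 probe sets higher (0.72% of all). HSPA6 differed by 4.61 ± 0.13 (SE, 9 against 6 arrays), HSP70.2 by 3.79, 2.44 and 3.06 on its 3 probe sets in the order above, and DNAJB1 by 2.60. HSPA6 ranked 1st, HSP70.2 3rd, 9th and 4th, and DNAJB1 6th of 16799. All 28 alternatives of this comparison left 5 of 5 called, including the compared groups alone and each of their arrays left out in turn. CA20 replicate 2 had a choroid plexus and meninges marker sum of 13020, against 938 to 1105 on the other CA20 and CA30 arrays. Without it HSPA6 differed by 4.59, HSP70.2 by 3.76, 2.43 and 3.01, and DNAJB1 by 2.62.

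Methylene blue was compared with saline at each time to ask whether it alters the response. None of the 5 probe sets was called at 30, 60 or 180 min, nor in the mean over times, where 4.09%, 1.52%, 1.9% and 25.2% of all probe sets were called in either direction. Of these 20 differences, only that of HSPA6 at 30 min had an unadjusted p under 0.05 in the limma fit. Over all 16799 probe sets, 3572, 2910, 3121 and 6387 were under 0.05 in these comparisons, so HSPA6 was 1 of many. HSPA6 in MB30 was 1.54-fold lower than in SAL30, a log2 difference of -0.62 ± 0.20 with a 95% interval of -1.02 to -0.22 and an adjusted p of 0.0666. All 3 MB30 arrays were below all 3 SAL30 arrays, as for 9.58% of all probe sets. The differences at 60 and 180 min were 0.04 and 0.07, each with an SE of 0.20.

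The adjusted p of HSPA6 at 30 min lay between 0.0191 and 0.209 over its 19 alternatives and was under 0.05 in 4 of them: 0.0467 with a pseudocount of 64, 0.0298 with median centring, 0.0191 with the 3' to 5' ratio as covariate, and 0.0403 without SAL30 replicate 2. The 3' to 5' ratio did not overlap between MB30 (0.85 to 0.88) and SAL30 (1.22 to 1.35), and the summed choroid plexus and meninges markers were 1045 to 1475 in MB30 against 779 to 1024 in SAL30. In the same comparison 1 choroid plexus and meninges probe set of 5 was called higher, and 1 of 5 microglial (list median -0.51) and 1 of 12 oligodendrocyte probe sets (list median -0.23) were called lower. Of 11 neuronal probe sets 0 were called, with a list median of 0.33. In the mean over times 5 neuronal probe sets were called higher, where 25.2% of all were called in either direction. The part of these markers in the result was not tested. Whether the methylene blue difference of HSPA6 varied between times had an unadjusted p of 0.0316 and an adjusted p of 0.9999 in the interaction test, in which 0% of all probe sets were called.

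HSP70.2 differed between the arms by -0.36, 0.27 and -0.09 at 30, 60 and 180 min on set A (SE 0.39). The SE pools the spread of all 10 groups, CA0 with replicate 2 among them. On set A the log2 SD was 1.43 in CA0 against 0.12 to 0.37 in the resuscitated groups. The 95% intervals ran from -1.15 to 1.07 on set A, -0.75 to 0.80 on set B and -0.86 to 1.03 on set C over the 3 times. DNAJB1 differed by -0.04, 0.54 and 0.46 (SE 0.28). Its log2 SD was 0.11 in SAL180 and 0.031 in MB180, against 0.65 in CA0, 0.54 in SAL60 and 0.56 in MB60. At 180 min its 3 MB180 arrays (2597 to 2710) lay above its 3 SAL180 arrays (1764 to 2063), as for 12.1% of all probe sets, but the adjusted p was 0.407. The 3' to 5' ratio did not overlap between MB180 (0.97 to 1.20) and SAL180 (1.39 to 2.60). With this ratio as covariate the DNAJB1 difference at 180 min was 0.13. Averaged over the 3 times, DNAJB1 was 0.32 ± 0.16 higher with methylene blue (unadjusted p = 0.0643, adjusted p = 0.157 by limma), and with the 3' to 5' ratio as covariate this was 0.079.

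**Figure D3:**
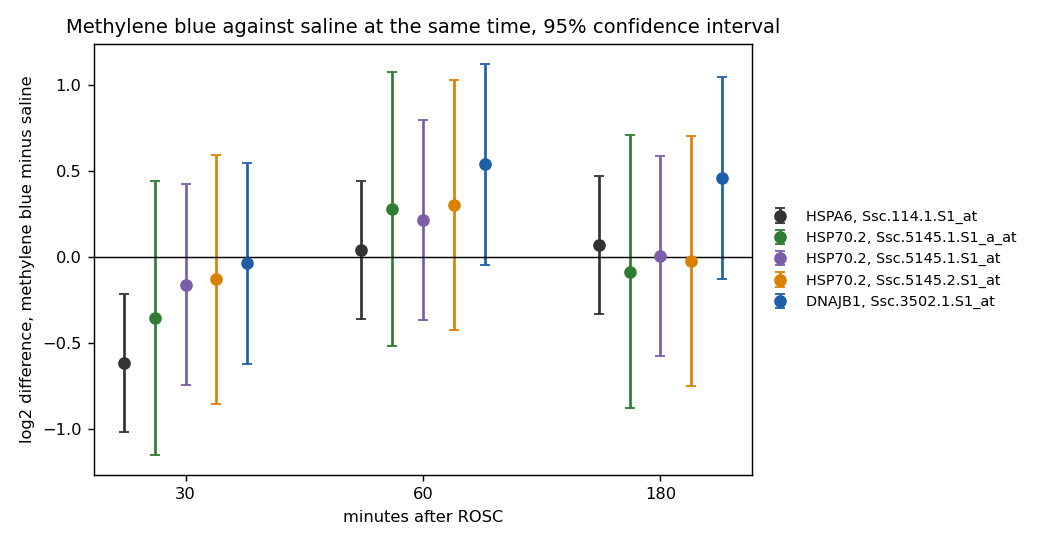
Log2 difference of methylene blue minus saline (points) with 95% confidence intervals from the limma fit for the 5 probe sets at 30, 60 and 180 min after ROSC. The interval of HSPA6 at 30 min, from -1.02 to -0.22, is the only one of the 15 that excludes 0. At 30, 60 and 180 min, 3572, 2910 and 3121 of all 16799 probe sets had an unadjusted limma p under 0.05.

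The change from 30 to 180 min was tested within each arm for each gene, and no test compared the genes with one another. HSPA6 was 0.86 ± 0.20 higher at 180 than at 30 min with saline (adjusted p = 0.0333) and 1.54 ± 0.20 higher with methylene blue (adjusted p = 0.00014), so 1 of 5 probe sets was called in each arm (0.417% and 0.185% of all were called higher). The groups did not overlap in either arm, as for 7.95% and 5.42% of all probe sets. The saline call was lost in 7 of 19 alternatives, with differences of 0.68 to 0.95 in those 7, while the methylene blue call was kept in 19 of 19. Without SAL30 replicate 1 the saline adjusted p was 0.103, without SAL30 replicate 2 it was 0.128, and without SAL180 replicate 1, 2 or 3 it was 0.0983, 0.111 or 0.0680. Without the 5 arrays least like the rest (SAL30 replicate 1, SAL180 replicate 3, MB30 replicate 2, MB60 replicate 2 and MB180 replicate 3) it was 0.191, and with the SAL30 and SAL180 arrays alone 0.349, within a range of 0.00268 to 0.349 over all alternatives.

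The difference between the arms in this change, which was added after the data were seen, was 0.69 ± 0.28 for HSPA6 (unadjusted p = 0.0198, adjusted p = 0.999), and 0% of all probe sets were called. HSP70.2 changed by 0.03 to 0.11 with saline and by 0.18 to 0.38 with methylene blue over its probe sets, and none was called. DNAJB1 was -0.46 ± 0.28 at 180 against 30 min with saline (adjusted p = 0.491), with all 3 SAL180 arrays below all 3 SAL30 arrays, as for 8.2% of all probe sets. The 3' to 5' ratio did not overlap between SAL180 (1.39 to 2.60) and SAL30 (1.22 to 1.35). With this ratio as covariate the DNAJB1 difference was -0.22. With methylene blue DNAJB1 differed by 0.04 ± 0.28, and by 0.12 with the covariate.

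The within-array log2 ratio of the HSPA6 to the DNAJB1 reading sets both genes side by side. Its absolute value depends on the probes, so only the change between arrays is used, and no test was made. The ratio was -0.20 to 0.35 in SAL30, 0.083 to 0.58 in SAL60 and 1.31 to 1.47 in SAL180. It was -0.91 to -0.21 in MB30, -0.47 to 0.020 in MB60 and 0.86 to 1.14 in MB180. In each arm the 180 min arrays had the highest ratios. The part of RNA integrity, by the 3' to 5' signal, in this was not tested.

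Animals of the same group differed, and the deviations of the 3 genes from their group means were compared over the 30 arrays, permuting arrays within groups 100000 times (10 pairs of probe sets, adjusted over the 10). DNAJB1 deviated with HSP70.2 on set A (Pearson r = 0.789, permutation p = 8e-05, adjusted 0.000267; Spearman rho = 0.853, permutation p = 7e-05, adjusted 0.000233). It kept this relation without the 2 arrays farthest from the median (r = 0.771, permutation p = 0.0002) and in the 18 resuscitated arrays (r = 0.812, adjusted permutation p = 0.0133). In those 18 arrays it did not pass on set B (r = 0.474, adjusted permutation p = 0.277) or set C (r = 0.513, adjusted permutation p = 0.212). On set B the correlation was r = 0.676 (permutation p = 0.0113, adjusted 0.0188; rho = 0.604, p = 0.00862, adjusted 0.0144), and on set C r = 0.703 (permutation p = 0.00356, adjusted 0.00712; rho = 0.654, p = 0.00244, adjusted 0.00488). Without CA0 replicate 2 these were r = 0.499 (adjusted permutation p = 0.105) and r = 0.549 (adjusted permutation p = 0.0373), so on set B the relation rested on that array.

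HSPA6 also deviated with DNAJB1 (r = 0.604, permutation p = 0.0135, adjusted 0.0192; rho = 0.538, permutation p = 0.0202, adjusted 0.0289), and without the 2 farthest arrays r was 0.566 (permutation p = 0.021). HSPA6 and HSP70.2 did not pass on any HSP70.2 probe set: r was 0.303, 0.265 and 0.241 with adjusted permutation p from 0.457 to 0.489. In the 18 resuscitated arrays r between HSPA6 and set A was 0.614 (adjusted permutation p = 0.0633). All readings of an array share its RNA and scaling, and the part of these in the correlations was not tested.

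**Figure D4:**
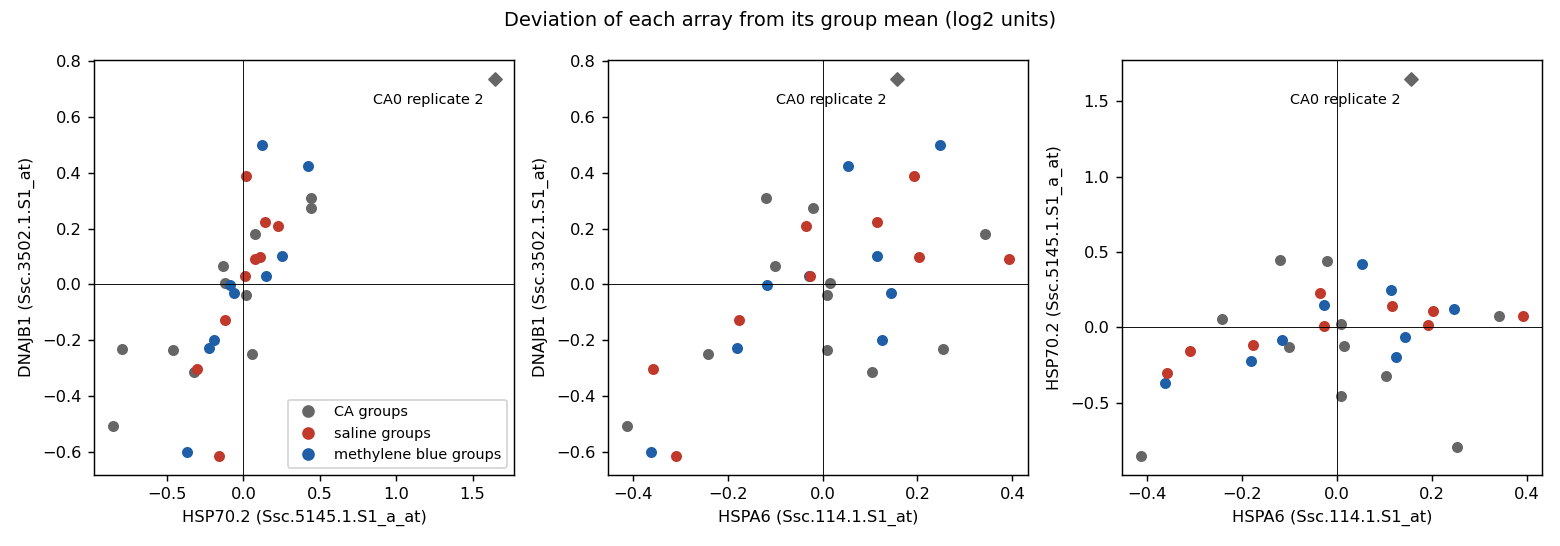
Deviation of each of the 30 arrays from its group mean in log2 units, for HSP70.2 (set A) against DNAJB1, HSPA6 against DNAJB1, and HSPA6 against HSP70.2. The points follow a rising line in the left panel (r = 0.789) and a looser one in the middle panel (r = 0.604), and CA0 replicate 2 (diamond) lies far out for HSP70.2 and DNAJB1 but not for HSPA6.

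The other genes of the HSP70 system were taken by list. Of 10 other HSP70 family genes tested on 17 probe sets, 0 were called in SAL30, SAL60 or SAL180, where 0.196%, 0.315% and 0.875% of all probe sets were called in either direction, so a count of 0 is near the background. The median difference in SAL180 was 0.13 against 0.00088 over all probe sets. The constitutive cytosolic form HSPA8, named after its values were seen, had 4 probe sets with differences of 0.069 to 0.13 in SAL180 and -0.32 to 0.015 in SAL30. HSPH1, the large HSP70-like exchange factor, had 5210 ± 487 (SD, n = 3) in CA0 and 7483 ± 208 in SAL180, 0.52 ± 0.14 higher without a call (adjusted p = 0.0729); the SAL180 arrays lay above CA0, as for 7.76% of all probe sets. It passed in MB180 (0.51, adjusted p = 0.0219), and in the saline mean against CA20 and CA30 it was the only family gene called (0.49 ± 0.09, adjusted p = 0.00249).

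Of 22 other J-domain genes on 35 probe sets, 0 were called in SAL30 and SAL60 and 1 in SAL180. This was DNAJA4, a cytosolic J-domain protein, which rose from 1350 ± 126 to 2282 ± 216, a difference of 0.75 ± 0.15 (adjusted p = 0.0101). DNAJB4, the close relative of DNAJB1, had differences of 0.44, 0.54 and 0.45 in the 3 saline groups, and its adjusted p was 0.368 to 0.612. Its arrays lay above the shared CA0 arrays in each, as for 6.24%, 6.07% and 7.76% of all probe sets. The median over the J-domain probe sets in SAL180 was -0.01 against 0.00088 over all.

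Exchange factors and small heat shock proteins that work with HSP70 gave most calls outside the members: 1 of 12 genes in SAL30 and in SAL60 and 3 of 12 in SAL180 (4 of 16 probe sets, where 0.619% of all were called higher). BAG3, which couples HSP70 to selective autophagy, rose on its brighter probe set from 321 ± 52 in CA0 to 1330 ± 390, 1710 ± 587 and 2608 ± 410 in SAL30, SAL60 and SAL180, differences of 1.97, 2.30 and 2.96 (SE 0.30). Its other probe set gave 1.66 ± 0.30 in SAL180 and did not pass in SAL30 (1.22, adjusted p = 0.161). HSPB8, the small heat shock partner of BAG3, was level at 30 min (-0.02) and rose by 1.17 ± 0.15 at 180 min, and HSPB1 (HSP27) rose by 1.16 ± 0.20 at 180 min. HSPB8 was 1.19 ± 0.15 higher at 180 than at 30 min with saline (adjusted p = 0.000163) and 1.14 ± 0.15 with methylene blue (adjusted p = 0.000184).

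In SAL180, 0 of 10 genes of the HSP90 system, 0 of 8 chaperonin genes and 0 of 4 heat shock factor genes were called, near the background of 0.875%. Among the chaperonins the mitochondrial HSPD1 (HSP60) was 0.36 ± 0.10 higher without passing (adjusted p = 0.111), with its SAL180 arrays above CA0 as for 7.76% of all probe sets. Median differences of the 3 lists were 0.07, 0.03 and -0.11.

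Against CA0 the methylene blue groups gave further calls in both directions, where 12.2%, 12.5% and 9.41% of all probe sets were called in MB30, MB60 and MB180, of which the lower ones were 4.59%, 5.49% and 3.71% of all. In MB180 the called genes whose tested probe sets did not disagree were HSPH1, DNAJA4, BAG3, HSPB8, HSPB1 and HSPD1, which were higher, and DNAJB2 and CCT4, a subunit of the cytosolic chaperonin, which were lower. Called on at least 1 of several disagreeing probe sets were DNAJB9, SEC63, DNAJC8, HSP90AA1 and HSBP1. HSPD1 rose by 0.60 ± 0.10 in MB180 and HSPB8 by 1.59 ± 0.15. DNAJB2, a J-domain protein abundant in neurons, was lower by -0.97 ± 0.23 in MB30 against CA0 and by -0.93 ± 0.23 against SAL30 (adjusted p = 0.0229). For HSPA9, HSPA13, DNAJB9, SEC63, DNAJC8, HSP90AA1 and HSBP1 the probe sets of 1 gene disagreed in MB180 in sign, size or call. No direction is given for these genes, except that all HSP90AA1 probe sets were above CA0 by differing amounts. HSP90AA1 differed by 1.67 on 1 probe set and by 0.075 to 0.40 on the other 4, and DNAJC8 by -0.42 (adjusted p = 0.0111 by limma) and 0.21 (adjusted p = 0.522).

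**Figure D5:**
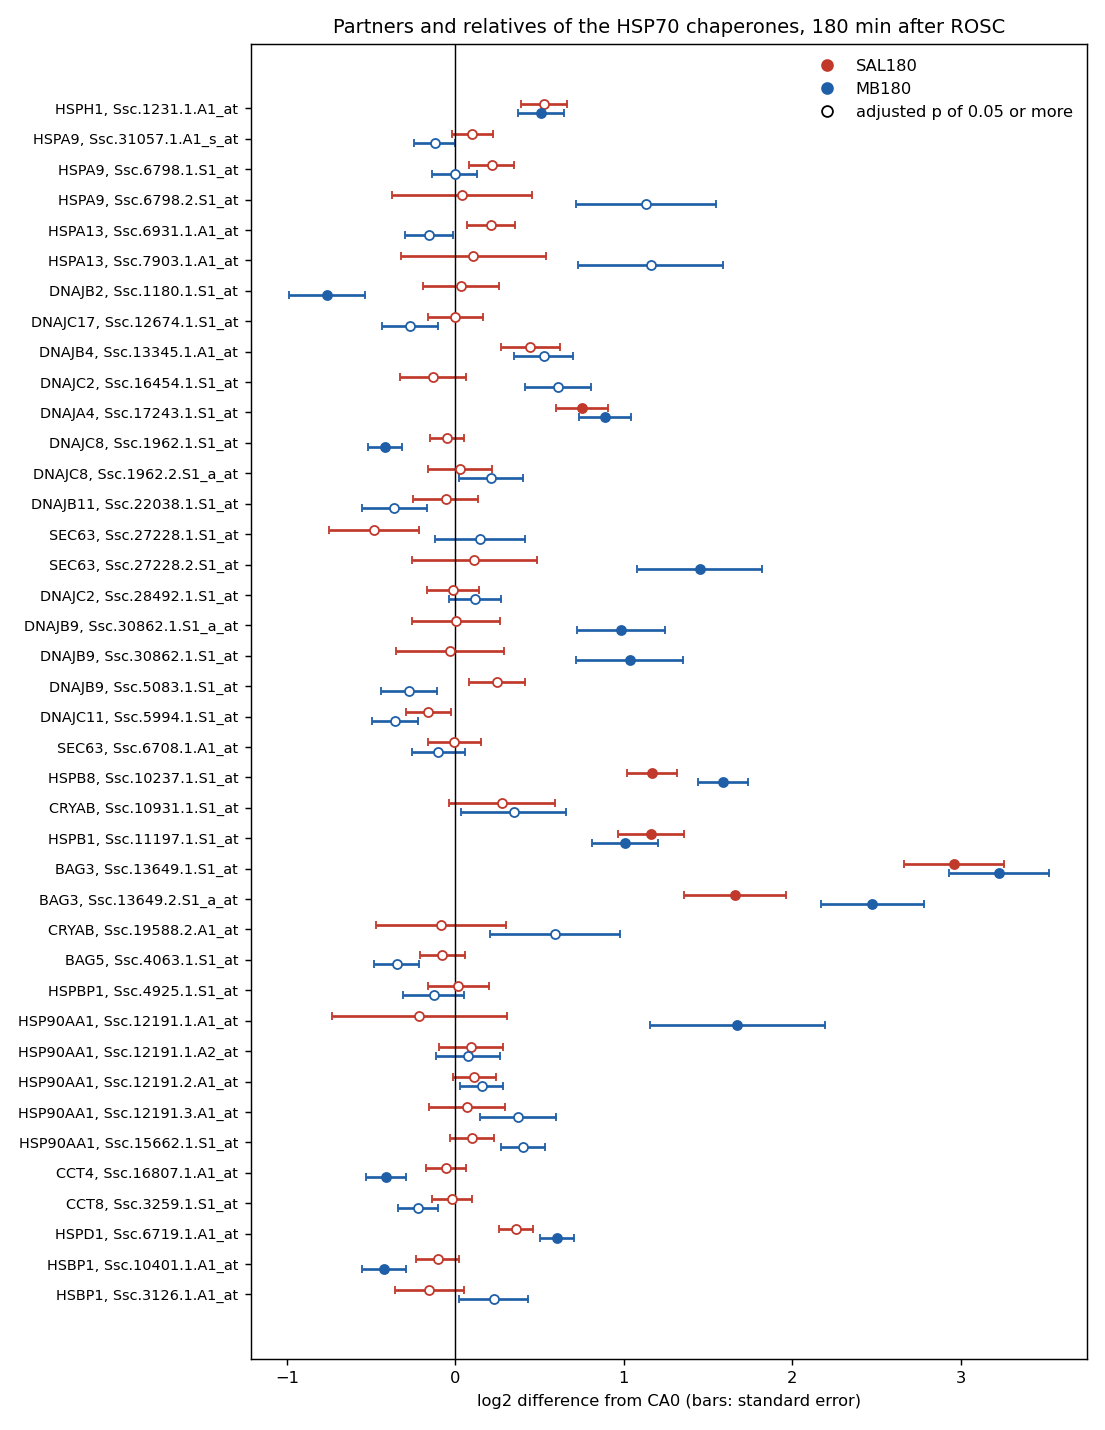
Log2 difference from CA0 (points, bars are SE) 180 min after ROSC with saline (red) and methylene blue (blue) for every tested probe set of the chaperone genes named by rule, with open points where the adjusted p was 0.05 or more. BAG3 (2.96 and 3.23 on its brighter probe set), HSPB8 and HSPB1 stand out to the right, and HSPA9, HSPA13, SEC63, DNAJB9, DNAJC8, HSP90AA1 and HSBP1 differ between their own probe sets with methylene blue.

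The probe sets most like the members over the 10 group means came from 7843 with 1 symbol, by Pearson's r, as a description over groups that share their time course. HSPA6 was most like GADD45A, a growth arrest and DNA damage gene (r = 0.988), BAG3 (0.977), the secreted protease ADAMTS1 (0.976), the repressor NFIL3 (0.971) and the small GTPase GEM (0.969). HSP70.2 on set A was most like ADAMTS1 (0.972 and 0.960 on its 2 probe sets), GADD45A (0.968), CDC25C (0.948) and BAG3 (0.947), and its other probe sets shared ADAMTS1, GADD45A and CDC25C and added FOSL2. DNAJB1 was most like FOSL2, an AP-1 subunit (0.973), ADAMTS1 (0.967), PPP1R15A, which ends translational arrest (0.960), DNAJB4 (0.959) and ATF3 (0.955). Between 33 and 38 probe sets had r over 0.9 with a given member. Within groups, over 30 arrays, r with HSPA6 was -0.298 for GADD45A and 0.484 for BAG3, and BAG3 had 0.155 with HSP70.2 set A. For ADAMTS1 it was -0.14 to 0.19 with the members. The highest were 0.54 to 0.65 for CDC25C with HSP70.2, on a dim probe set (47.1 in CA0 and 72.9 in SAL180).

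Markers of other cell types were set beside the rise at 180 min. In SAL180 against CA0, 0 tested marker probe sets of any of 9 lists were called. The summed endothelial signal was 1741 to 2105 in SAL180 and 1658 to 1992 in MB180 against 1334 to 1470 in CA0, and the summed neutrophil and monocyte signal, of which only 1 of 5 probe sets passed the intensity filter, was 138 to 148 and 197 to 267 against 54.9 to 99.4. The microglial sum was 1639 to 2008 in SAL180 against 2326 to 3876 in CA0. In SAL60 these sums were 1408 to 1619, 105 to 118 and 1930 to 2418. The part of these markers in the members' rise was not tested.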

How the data were processed

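RNA from cerebral cortex was measured on 30 one-colour Affymetrix porcine arrays, 3 in each of 10 groups. The deposited values are linear intensity; per the submitters' processing notes the authors used GCOS, whose version and algorithm were not given in the sources used here. The mean without the lowest and highest 2% of probe sets was 300.048 to 300.059 on every array. Control probe sets (124 of 24123) were left out. Values were taken as log2(intensity + 16), and only the 16799 probe sets whose mean reached the 30th percentile (intensity 29.5) were tested. One limma 3.58.1 fit (R 4.3.3) with 10 group means, 20 residual degrees of freedom and an intensity trend gave two-sided tests, adjusted by Benjamini-Hochberg within each of 18 comparisons at 0.05. The arrays have no counts, so 3 arrays a group limit the precision.

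Symbols came from the platform table (10069 probe sets with 1, 198 with several, 13732 with none); probe sets with 1 symbol only were named, and 3 of 3 member genes matched RefSeq by gene ID. The members and lists were chosen with earlier results of these data known. Named genes were all members, list genes called in any resuscitated group against CA0, or else the 2 with the smallest p in SAL180, and the 5 probe sets most like each member. Same-numbered arrays deviated together, with every correlation over 0.1 (0.123 to 0.172), only in CA30 against CA0; no label says that a number is shared. No 2 arrays were copies of each other (SD of their log2 difference at least 0.338). In simulated data for SAL180 against CA0 on 16799 probe sets, 12%, 74%, 100% and 98% of changes of 0.5, 1, 2 and 4 were called. Alternatives were other pseudocounts, filters, scaling, array weights, a replicate block, no trend, adjustment over all comparisons, a 3' to 5' covariate, the compared groups alone, and each array left out; leaving out 5 arrays that stood apart was chosen after seeing the data.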

Additional observations from a re-analysis of the deposited data

How the results depend on the processing

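Of 381 recalculations of how many member probe sets were called, over 18 comparisons, 366 gave the same count. The count in MB30 against SAL30 was 1 in place of 0 (HSPA6) with a pseudocount of 64, with median centring and with the 3' to 5' ratio as covariate, and 0 to 1 with 1 array left out. In the mean of MB against SAL it was 1 in place of 0 with that covariate (HSPA6 -0.38, adjusted p = 0.0445, range 0.0445 to 0.570 over 31 alternatives). In SAL180 against SAL30 it was 0 in place of 1 without the 5 arrays that stood apart and with the compared groups alone, and 0 to 1 with 1 array left out. With the compared groups alone it was 1 in place of 5 in SAL30 against CA0 and 2 in SAL60 and in SAL180. That fit had fewer arrays, and it took the spread from CA0 and the saline group only. In CA0 the log2 SD was 1.43, 0.99 and 1.20 on HSP70.2 sets A, B and C, and 0.36 for HSPA6. DNAJB1 in SAL30 had an adjusted p of 0.0643 in that fit (2.09e-06 to 0.0643 over 19 alternatives). The cause of these changes was not tested. The replicate block left every count as it was, with 0 of 5 called in CA30 against CA0 and 5 of 5 in SAL180 against CA0, and all 6 methylene blue and SAL comparisons with CA0 kept 5 under every alternative other than the compared groups alone.

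Of 1750 single log2 differences recalculated, 57 changed sign, and 0 of these were called on either side. Against SAL60, HSPA6 in MB60 (0.04) was -0.017 with quantile normalization, -0.018 with median centring, -0.081 with array weights, -0.15 with the 3' to 5' covariate and -0.084 without the 5 arrays. Against SAL180, HSPA6 in MB180 (0.07) was -0.079 with median centring, -0.22 with the covariate and -0.094 without the 5 arrays; HSP70.2 set B was -0.14 with median centring, and HSP70.2 set C 0.059 with array weights and 0.024 with the covariate. In the mean of MB against SAL, HSP70.2 set B was -0.034 with quantile normalization and -0.076 with median centring, and HSP70.2 set C -0.050 and -0.048. DNAJB1 in MB30 against SAL30 was 0.078 with array weights, and HSP70.2 set B in SAL180 against SAL30 was -0.014 with the covariate.

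With 1 array left out, HSP70.2 against CA0 (sets A, B and C in that order) ranged in CA5 from -1.01 to 0.24, -0.67 to 0.23 and -0.95 to 0.12, in CA20 from -1.22 to 0.029, -0.88 to 0.030 and -0.95 to 0.12, and in CA30 from -0.88 to 0.37, -0.72 to 0.18 and -0.91 to 0.16. DNAJB1 ranged from -0.61 to 0.0066 in CA5 and -0.59 to 0.027 in CA30, and HSPA6 from -0.090 to 0.24 in CA20. For MB against SAL, DNAJB1 at 30 min ranged from -0.25 to 0.074, HSPA6 at 60 min from -0.11 to 0.22 and at 180 min from -0.022 to 0.17, HSP70.2 set B at 60 min from -0.021 to 0.42 and at 180 min from -0.070 to 0.066, and HSP70.2 set C at 180 min from -0.14 to 0.11. The means over times ranged for HSP70.2 from -0.13 to 0.0050, -0.059 to 0.087 and -0.042 to 0.12. In SAL180 against SAL30 HSP70.2 ranged from -0.038 to 0.23, -0.014 to 0.057 and -0.042 to 0.17. DNAJB1 in MB180 against MB30 ranged from -0.076 to 0.25, and the difference between arms in the change of HSP70.2 set C from -0.0046 to 0.28.

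Counts over all probe sets moved by more than 1.5 times in some alternatives of most comparisons. Against CA0, 33 in SAL30 ranged from 12 to 73, 53 in SAL60 from 19 to 94, 147 in SAL180 from 55 to 362, 2044 in MB30 from 442 to 2884, 2106 in MB60 from 493 to 2827 and 1580 in MB180 from 641 to 2299. Between the arms, 687 at 30 min ranged from 27 to 1117, 256 at 60 min from 27 to 322, 319 at 180 min from 13 to 1258 (23 to 611 with 1 array left out) and 4231 in the mean from 1457 to 5271. Between times, 110 with saline ranged from 4 to 282 and 48 with methylene blue from 6 to 117. The count of 143 for the saline mean against CA20 and CA30 ranged from 106 to 214, and the counts of 0 to 2 in the other 5 comparisons from 0 to 17. The planned search of the members' promoters for heat shock elements was not run, since no promoter sequence was used here. A change of 0.5 on the log2 scale would be called in few cases at this size (12% in simulated data for SAL180 against CA0).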
